A study of Mus musculus with 11 samples.

Results

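The StAR-related lipid transfer proteins are a family built around a START domain, a pocket that encloses a single lipid molecule and carries it through the watery space between membranes. The family takes its name from StAR, which brings cholesterol into mitochondria for steroid synthesis; other members carry sterols, phosphatidylcholine or ceramide, and some combine the domain with another that acts in cell signalling. In brain, sterols are made locally and have to be moved between the endoplasmic reticulum, plasma membrane, endosomes and mitochondria by carriers of this kind.

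Transcripts of 9 family genes were examined, of 19938 genes measured: Star, Stard3, Stard4, Stard5, Stard6, Stard7, Stard8, Stard10 and Stard13. The family was chosen by the measured fall of Stard5, the largest of all genes tested, and the other members were taken by gene symbol. The study compared the nucleus accumbens, enriched in its shell, of 5 Rarb-null and 6 wild-type (WT) male mice aged 4 to 5 months. The null mice lack retinoic acid receptor beta, a ligand-activated transcription factor, in an allele that the sources used here do not describe further and do not restrict to a tissue. Null and WT mice were littermates on a mixed C57BL/6J and 129SvEms/j background and had not been through behavioural tests. RNA of each mouse was read on an Affymetrix Mouse Gene 1.0 ST array, and levels are on the log2 scale after normalisation by the RMA method, so a difference of 1 is a doubling.

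Differences are null minus WT means, each with its standard error (SE) from limma, and levels are means ± SD over 5 null and 6 WT arrays. A gene was called when its limma p, adjusted by Benjamini-Hochberg over 11963 genes with a mean level above log2 6.99, was under 0.05. The extraction text swaps the sizes of the groups relative to the titles, so Rarb was read first: it stood at 9.72 to 10.01 in the arrays titled null and at 11.70 to 11.81 in those titled WT, without overlap. Pairwise correlations between arrays ran from 0.989 to 0.997. Array medians were 7.08 to 7.11 in null and 7.02 to 7.06 in WT arrays, a slight offset. Interquartile ranges were 3.3777 to 3.4859 in null and 3.4876 to 3.5545 in WT arrays, so null values were slightly less spread, without overlap. Centring arrays on their median leaves this spread as it was. Its part in the differences below was not tested beyond the fit with quantiles normalised again. All 12 measured markers of striatal projection neurons passed the filter on dim genes, 9 of them fell and 0 rose, and their mean level was 11.59 to 11.71 in null and 11.86 to 11.93 in WT arrays. The mean of 9 cortical neuron markers was 7.97 to 8.59 in null and 7.35 to 8.12 in WT arrays, with 3 of 7 tested called as higher. That of 8 oligodendrocyte markers was 9.38 to 9.63 in null and 9.53 to 9.74 in WT arrays, with 3 of 8 called as lower. For 8 astrocyte markers it was 9.53 to 9.65 in null and 9.60 to 9.72 in WT arrays, with 2 called as lower and 1 as higher. Of 6 interneuron markers tested, 2 were called as higher and 2 as lower. The part of these mixtures in the differences below was not tested beyond the fits that include the cortical or the oligodendrocyte marker level.

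Of the 9 members, 7 passed the filter on dim genes, and Star and Stard6 did not. Stard5 stood far lower in null arrays; in a tissue mixture, fewer cells that express a gene and less RNA per cell cannot be told apart. Of the 6 other members tested, Stard8 rose, Stard10 fell, and Stard3, Stard4, Stard7 and Stard13 did not pass the test. Among all genes tested 19.6% were called, 7.56% higher and 12% lower in null arrays, and the genotypes did not overlap for 11.2%. The median difference was -0.09 over these 6 members and -0.02 over all genes tested. With each array centred on its median, the calls over all genes were 1677 higher and 939 lower, in place of 905 higher and 1436 lower, and with quantiles normalised again they were 1180 higher and 1170 lower.

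**Figure D1:**
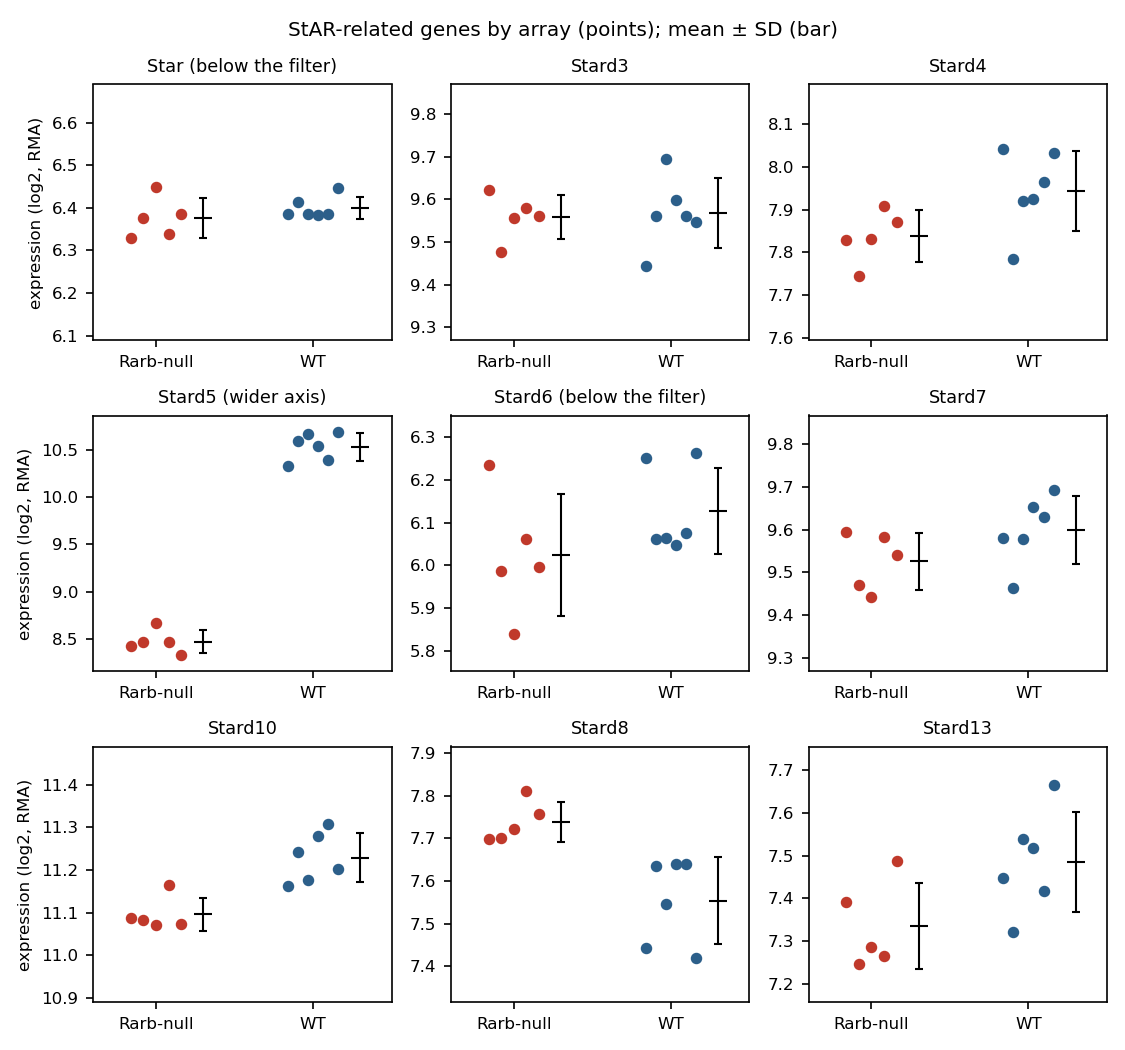
Level of each family gene (log2 RMA value, vertical axis) in the 5 Rarb-null arrays (red, left) and the 6 WT arrays (blue, right), with mean ± SD as black bars; all panels span the same height except that of Stard5. The null arrays of Stard5 lie between 8.33 and 8.67, all below the WT arrays, whereas the genotypes overlap for the other members except Stard8.

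Stard5 encodes a small cytosolic carrier of cholesterol that consists of little more than the START domain. Its probe set (10554693) read 8.43, 8.47, 8.67, 8.47 and 8.33 in null replicates 1 to 5, and between 10.32 and 10.68 in WT arrays with a median of 10.56. No null array came near the WT range, and the spread within a genotype was small beside the distance between them. The means were 8.47 ± 0.12 in null and 10.53 ± 0.15 in WT arrays, a difference of -2.06 (SE 0.072), or 4.16-fold lower. Because this value chose the family, it is given as a description without a test. The next largest falls were those of Rarb itself (-1.86, SE 0.047) and the chemokine gene Cxcl13 (-1.84, SE 0.214). The difference ran from -2.11 to -1.99 under the other processing settings and from -2.10 to -2.02 when any array was left out. It was -1.99 with the cortical and -2.11 with the oligodendrocyte marker level in the fit.

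The promoter of Stard5 is shown because the protein missing in the null mice binds DNA, with those of Stard8 and Stard10, which were called among the other members. Each sequence runs from 250 bases before to 50 after the annotated start, 5′ to 3′ along the gene, from RefSeq on build GRCm38.p6, and capitals mark the 6-base core of retinoic acid response elements (AGGTCA or GGGTCA, or the variants AGTTCA and GGTTCA, on either strand).
Stard5 (chr7:83631767-83632066, plus strand): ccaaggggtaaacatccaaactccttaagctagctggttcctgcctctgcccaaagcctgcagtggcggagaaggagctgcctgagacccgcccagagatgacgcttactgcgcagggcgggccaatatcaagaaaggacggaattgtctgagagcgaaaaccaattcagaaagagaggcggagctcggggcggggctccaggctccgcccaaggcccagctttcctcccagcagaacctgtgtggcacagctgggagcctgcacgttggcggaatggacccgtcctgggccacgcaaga
Stard8 (chrX:99042331-99042630, plus strand): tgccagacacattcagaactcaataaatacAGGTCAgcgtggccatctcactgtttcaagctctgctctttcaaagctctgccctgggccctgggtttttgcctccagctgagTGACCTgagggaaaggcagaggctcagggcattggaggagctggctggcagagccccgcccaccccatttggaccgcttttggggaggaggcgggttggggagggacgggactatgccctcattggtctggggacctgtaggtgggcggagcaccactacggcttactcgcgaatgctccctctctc
Stard10 (chr7:101316836-101317135, plus strand): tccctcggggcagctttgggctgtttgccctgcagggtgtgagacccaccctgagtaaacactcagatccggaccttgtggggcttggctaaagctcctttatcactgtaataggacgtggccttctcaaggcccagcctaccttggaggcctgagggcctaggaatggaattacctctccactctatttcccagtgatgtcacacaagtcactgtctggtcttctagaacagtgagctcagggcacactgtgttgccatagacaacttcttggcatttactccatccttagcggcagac
The windows of Stard5 and Stard10 held none of these cores. That of Stard8 held AGGTCA in both orientations, at positions -220 to -215 and -137 to -132 from the start. Of 6 members with a promoter in the table, 4 (Stard3, Stard7, Stard8 and Stard13) held at least 1 core, against 43.7% of 32851 promoters. None of the 6 held a direct repeat of cores spaced by 1, 2 or 5 bases, which 0.222%, 0.268% and 0.0974% of all promoters did. The endoplasmic reticulum stress element ERSE was in none of the 6 and in 0.119% of all promoters, and the sterol response element TCACNCCAC was in that of Stard3 and in 1.24% of all. Such matches describe letters in a short window and do not show where a receptor binds.

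Stard4 and Stard6 belong to the same subfamily of single-domain carriers as Stard5. Stard4, a cytosolic sterol carrier whose gene is switched on when cells lack cholesterol, read 7.83, 7.75, 7.83, 7.91 and 7.87 in null replicates 1 to 5, and 7.79 to 8.04 in WT arrays with a median of 7.95. All null arrays but replicate 2 lay inside the WT range. Its difference was -0.11 (SE 0.047, 95% interval -0.21 to -0.01) and did not pass after adjustment (limma, adjusted p = 0.121), although it did without WT replicate 2, the lowest WT array (-0.14, adjusted p = 0.0279; over all alternatives adjusted p 0.0279 to 0.413). Stard6, known mainly from male germ cells, was below the filter. Its 2 probe sets gave -0.10 and -0.14, and the brighter stood at 5.84 to 6.24 in null and 6.05 to 6.26 in WT arrays.

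StAR itself, encoded by Star, is the carrier of the rate-limiting step of steroid synthesis. Its probe set was below the filter, at 6.33 to 6.45 in null arrays and 6.38 to 6.45 in WT arrays, with a difference of -0.02 (SE 0.032). Replicates 1, 3 and 5 of WT carried the identical value of 6.385. Stard3, which holds late endosomes and the endoplasmic reticulum together while passing cholesterol between them, stood at 9.48 to 9.62 in null and 9.44 to 9.69 in WT arrays. The null range lay wholly inside the WT range, with a difference of -0.01 (SE 0.042, 95% interval -0.10 to 0.08; limma, adjusted p = 0.905). The sign of so small a value turned with the setting, to 0.03 with arrays centred.

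Stard7 and Stard10 carry phosphatidylcholine. Stard7, which supplies it to mitochondria, read 9.60, 9.47, 9.44, 9.58 and 9.54 in null replicates 1 to 5, and 9.46 to 9.69 in WT arrays with a median of 9.61. The genotypes overlapped over most of their range, and the difference of -0.07 (SE 0.044, 95% interval -0.17 to 0.02) did not pass (limma, adjusted p = 0.248).

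Stard10, which also binds phosphatidylethanolamine, was lower in null arrays. Its probe set (10555460) read 11.09, 11.08, 11.07, 11.16 and 11.07 in null replicates 1 to 5, and 11.16 to 11.31 in WT arrays with a median of 11.22. Null replicate 4 reached the level of the lowest WT array, and the other null arrays lay below all WT arrays. The means were 11.10 ± 0.04 in null and 11.23 ± 0.06 in WT arrays, a difference of -0.13 (SE 0.035), or 1.10-fold lower (limma, Benjamini-Hochberg adjusted p = 0.0179; two-sided exact permutation p = 0.00649). The call was lost with arrays centred (-0.09, adjusted p = 0.0712), with the cortical marker level in the fit (-0.14, adjusted p = 0.0734) and without WT replicates 3 and 4 and null replicate 5, the arrays of most extreme cortical marker level, chosen after seeing the data (-0.13, adjusted p = 0.0833). Over all alternatives its adjusted p ran from 0.00818 to 0.0833.

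Stard8 and Stard13 join the START domain to a signalling domain, and are the relatives of the tumour suppressor gene Dlc1. Stard8 (probe set 10600921) was higher in null arrays, at 7.70, 7.70, 7.72, 7.81 and 7.76 in null replicates 1 to 5, and 7.42 to 7.64 in WT arrays with a median of 7.59. Every null array lay above every WT array, and the WT arrays varied more, with replicates 1 and 6 lowest. The means were 7.74 ± 0.05 in null and 7.55 ± 0.10 in WT arrays, a difference of 0.18 (SE 0.047), or 1.14-fold higher (limma, Benjamini-Hochberg adjusted p = 0.0169; two-sided exact permutation p = 0.00649). The call was lost in fits with a marker level, of cortical neurons (0.16, adjusted p = 0.137) or of oligodendrocytes (0.11, adjusted p = 0.199), and without the 3 arrays named above (0.20, adjusted p = 0.0585), in a range of 0.00538 to 0.199 over all alternatives.

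Stard13 did not pass the test. It read 7.39, 7.25, 7.29, 7.26 and 7.49 in null replicates 1 to 5, and 7.32 to 7.67 in WT arrays with a median of 7.48. The genotypes overlapped, since null replicates 1 and 5 lay inside the WT range. The difference of -0.15 (SE 0.060, 95% interval -0.28 to -0.02) had a limma adjusted p of 0.0956, and it passed without WT replicate 2 (-0.18, adjusted p = 0.0384), without null replicate 5 (-0.19, adjusted p = 0.047) and with array weights (-0.16, adjusted p = 0.0467; over all alternatives adjusted p 0.0384 to 0.289).

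**Figure D2:**
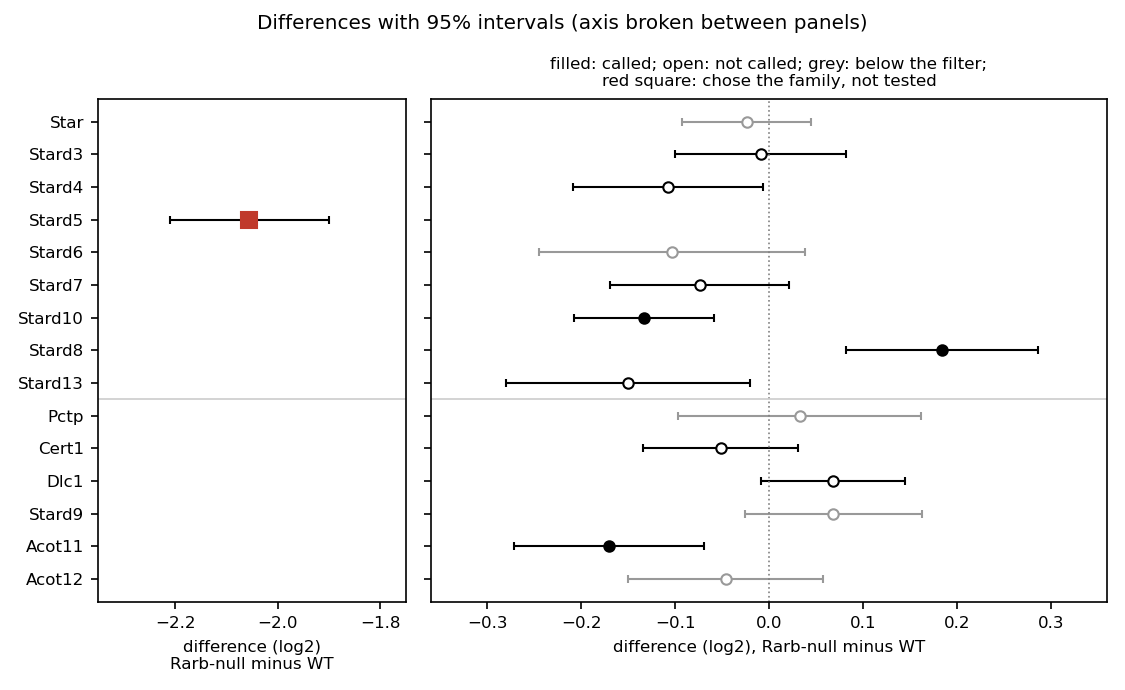
Difference between genotypes per gene (Rarb-null minus WT, log2, horizontal axis, broken between panels) with 95% intervals from the limma fit, for the 9 members above the line and 6 other START domain genes below it. Stard5 (red square, which chose the family and was not tested) stands at -2.06 in the left panel, while all others lie between -0.17 and 0.18.

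The remaining START domain genes had differences of similar size to the members other than Stard5. Of 6, Cert1, Acot11 and Dlc1 passed the filter. Acot11, an acyl-CoA thioesterase that carries a START domain, read 7.65 to 7.90 in null and 7.93 to 8.09 in WT arrays. The genotypes did not overlap, and the difference was -0.17 (SE 0.047; limma, adjusted p = 0.0236). The call was lost without null replicate 2 (-0.16, adjusted p = 0.0555), with arrays centred (-0.13, adjusted p = 0.0758), with the oligodendrocyte marker level (-0.16, adjusted p = 0.128) and without the 3 arrays named above (-0.20, adjusted p = 0.0585), within a range of 0.0147 to 0.128. Cert1, the ceramide carrier between endoplasmic reticulum and Golgi, gave -0.05 (SE 0.038, adjusted p = 0.355 by limma). Dlc1 itself gave 0.07 (SE 0.036; limma, adjusted p = 0.186), and passed with arrays centred (0.11, adjusted p = 0.0261; range over all alternatives 0.0261 to 0.63). Pctp, the phosphatidylcholine transfer protein gene, Stard9, a kinesin gene, and Acot12, an acetyl-CoA thioesterase gene, were below the filter, with differences of 0.03 for Pctp, 0.07 for Stard9 and -0.05 for Acot12. The other probe sets of Stard9 gave -0.01 and 0.07.

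Within genotypes the members did not vary as a block. Deviations of each array from its genotype mean were correlated over 11 arrays for the 21 pairs of tested members, as a description, since arrays share mouse, dissection and hybridisation. The highest value was between Stard8 and Stard10 (r = 0.79), although these 2 genes differed between genotypes in opposite directions. Stard4, Stard7 and Stard13 formed the next pairs (r = 0.53 to 0.70). Stard8 and Stard13 had the lowest value (r = -0.46). Stard5 ran with no other member above r = 0.42, the value with Stard3. Deviations of each tested member were also compared with the cortical neuron, oligodendrocyte, projection neuron, astrocyte and endothelial marker levels. The values named here were picked from the larger ones. Those of Stard8 were at r = -0.60 with the oligodendrocyte marker level and 0.61 with that of astrocytes, and those of Stard10 at -0.48 with the oligodendrocyte level. Stard3, which was not called, had the lowest value with the oligodendrocyte level (r = -0.66). Stard5 was at 0.46 with the projection neuron level and -0.42 with the endothelial level.

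**Figure D3:**
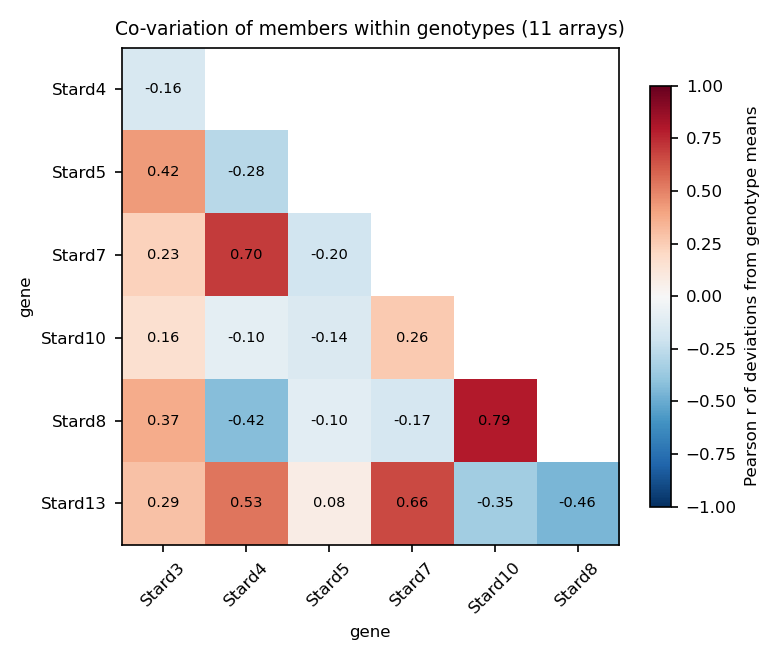
Pearson correlation of deviations from the genotype means over 11 arrays for each pair of the 7 tested members (colour and number, from blue for -1 to red for 1; both axes list genes). Stard8 with Stard10 (0.79) and Stard4 with Stard7 (0.70) stand highest, and Stard5 has no value above 0.42.

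Over all 11 arrays the tested genes most like Stard5 were Rarb (r = 0.994), Carhsp1 (0.993), which encodes an RNA-binding phosphoprotein, Syt12 (0.989), a synaptotagmin gene, Nt5e (0.988), which encodes the enzyme that makes extracellular adenosine, and Tbc1d8 (0.988). Their differences were -1.86 for Rarb, -0.81 for Carhsp1, -0.47 for Syt12, -0.78 for Nt5e and -0.58 for Tbc1d8, and these correlations include the gap between genotypes. In all, 94 of 11962 other genes had r above 0.95. Deviations within genotypes put other genes at the top of the 11962 compared: Tmc4 (r = 0.924), Sfi1 (0.895), the keratin gene Krt8 (0.887), the collagen gene Col6a1 (0.885) and Abcc9 (0.881), a subunit gene of potassium channels gated by ATP. The highest of so many values over 11 arrays can be this large without a link, which was not tested. The deviations of Rarb were at r = 0.477 with those of Stard5.

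Of the 5 protein-coding genes on each side of Stard5 in the RefSeq gene table, 9 were measured and 4 passed the filter, with differences from -0.10 to 0.21. Tmc3 and Il16, the direct neighbours, were below the filter, at 5.89 ± 0.13 in null and 6.06 ± 0.10 in WT arrays for Tmc3 and 6.34 ± 0.16 in null and 6.24 ± 0.05 in WT arrays for Il16. Mex3b, an RNA-binding protein gene 3 genes away, was called as higher (0.21, SE 0.056; limma, adjusted p = 0.0213), a call lost without null replicate 4 (0.19, adjusted p = 0.0512), in fits with the level of cortical (0.11, adjusted p = 0.309) or oligodendrocyte markers (0.17, adjusted p = 0.149) and without the 3 arrays named above (0.15, adjusted p = 0.146), within a range of 0.00333 to 0.309. Efl1 (-0.10), Tlnrd1 (-0.09) and Cemip (-0.09) were not called. None of the members lies on the chromosome of Rarb (0 of 9).

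Among other sterol carriers the split of calls by direction depended on the scaling. Of 21 genes of oxysterol-binding, Aster and Niemann-Pick type proteins and their partners, 20 were tested, 7 fell and 1 rose, with a median difference of -0.08, against -0.02 over all genes tested. The shares over all genes tested were 12% lower and 7.56% higher. With arrays centred 6 fell and 4 rose, where over all genes 939 fell and 1677 rose. With quantiles normalised again 6 fell and 3 rose, where over all genes 1170 fell and 1180 rose. The falls with the smallest p were in 3 oxysterol-binding protein genes, although Scp2, a sterol carrier protein gene (-0.22, SE 0.0545; limma, adjusted p = 0.0129), and Osbpl8 (-0.21, SE 0.0472; limma, adjusted p = 0.00802) fell by more than the last 2 of them. Osbp2 read 9.53 to 9.68 in null and 9.74 to 9.92 in WT arrays (difference -0.27, SE 0.040; limma, adjusted p = 0.000458). Osbpl9 read 10.52 to 10.64 in null and 10.68 to 10.80 in WT arrays (-0.18, SE 0.033; limma, adjusted p = 0.00257), and Osbpl6 9.04 to 9.14 in null and 9.20 to 9.32 in WT arrays (-0.18, SE 0.033; limma, adjusted p = 0.00264). The genotypes did not overlap for these 3. Osbpl1a was the gene that rose (0.20, SE 0.049; limma, adjusted p = 0.0123). With the cortical marker level in the fit 3 genes of the list were called, and the call of Osbpl9 was lost (-0.13, adjusted p = 0.066; range over its alternatives 0.000987 to 0.066).

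Genes that respond to cellular cholesterol, of which Stard4 is also one, were read as a further list. Of 14 tested, 2 fell and 0 rose, with a median of -0.06, where 12% of all genes tested fell and 7.56% rose. In this list 1 fell and 1 rose both with arrays centred and with quantiles normalised again. Dhcr7, the enzyme of the last step of cholesterol synthesis, read 8.78 to 8.90 in null and 9.12 to 9.26 in WT arrays, without overlap (-0.33, SE 0.034; limma, adjusted p = 2.38e-05). Insig1, which holds the sterol-sensing complex in the endoplasmic reticulum, read 9.78 to 10.02 in null and 9.96 to 10.33 in WT arrays (-0.21, SE 0.060; limma, adjusted p = 0.0295). Its call was lost without null replicate 2, 3 or 4 (adjusted p 0.0522 to 0.0754), which left 1 gene of the list called (as did the oligodendrocyte level), and with arrays centred (-0.17, adjusted p = 0.0572), normalised again (-0.18, adjusted p = 0.0508) or the oligodendrocyte level in the fit (-0.14, adjusted p = 0.239), within a range of 0.00166 to 0.239. With the 3 arrays named above dropped, or with a trended variance, 4 genes of the list were called.

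No change passed the limma test among 5 genes of steroid synthesis that could be tested, such as the mitochondrial protein gene Tspo (0.02), with 0 at an unadjusted p under 0.05. The same held for 5 genes of oxysterol formation and cholesterol efflux, with 1 at an unadjusted p under 0.05. Over all genes tested, 19.6% were called. The median difference was -0.03 for steroid synthesis and -0.01 for oxysterols and efflux. Most steroid synthesis genes were dim in this tissue: 10 of 15 measured were below the filter.

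Stard5 is known from other cells as a gene raised by stress of the endoplasmic reticulum, so genes of that response were read beside it. Of 14 tested, 2 fell and 0 rose, with a median of -0.05, beside 12% lower and 7.56% higher among all genes tested. Atf6, the gene of a stress-activated transcription factor, read 9.55 to 9.68 in null and 9.68 to 9.82 in WT arrays (-0.15, SE 0.035; limma, adjusted p = 0.0106), with the highest null array just below the lowest WT array. Eif2ak3, the gene of the stress sensor kinase PERK, read 8.19 to 8.33 in null and 8.33 to 8.47 in WT arrays (-0.12, SE 0.038; limma, adjusted p = 0.0424). Its call was lost under 8 of 10 alternative settings and without WT replicate 4, 5 or 6 or null replicate 2, 3 or 4 (adjusted p 0.0183 to 0.25 over all alternatives), and 1 gene of the list was called without WT replicate 4 or 5 or null replicate 2, 3 or 4. The list also had 1 called gene without the filter on dim genes, with the filter at the 60th percentile, with arrays centred, with a trended variance, with the oligodendrocyte level and without the 3 arrays named above.

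A list of phospholipid transfer genes outside the family included a larger change than any member but Stard5. Whether the products of the listed genes carry lipid was not measured. Of 11 tested in this list, 2 rose and 1 fell, with a median of 0.00, beside 7.56% higher and 12% lower among all genes tested. The list also holds Parl, a protease gene, and Gltp, a glycolipid transfer protein gene. Pitpnm3, a gene of the phosphatidylinositol transfer protein group, read 8.62 to 8.87 in null and 7.74 to 8.11 in WT arrays, far apart (0.79, SE 0.067; limma, adjusted p = 3.71e-06). Pitpnc1 of the same group read 9.90 to 10.09 in null and 10.12 to 10.31 in WT arrays (-0.26, SE 0.047; limma, adjusted p = 0.00232). Pltp, a secreted phospholipid transfer protein gene, read 10.24 to 10.43 in null and 9.90 to 10.23 in WT arrays (0.21, SE 0.057; limma, adjusted p = 0.0206). Its call was lost without null replicate 3 (0.18, adjusted p = 0.0592) and with the oligodendrocyte level in the fit (0.11, adjusted p = 0.256; range 0.00887 to 0.256).

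**Figure D4:**
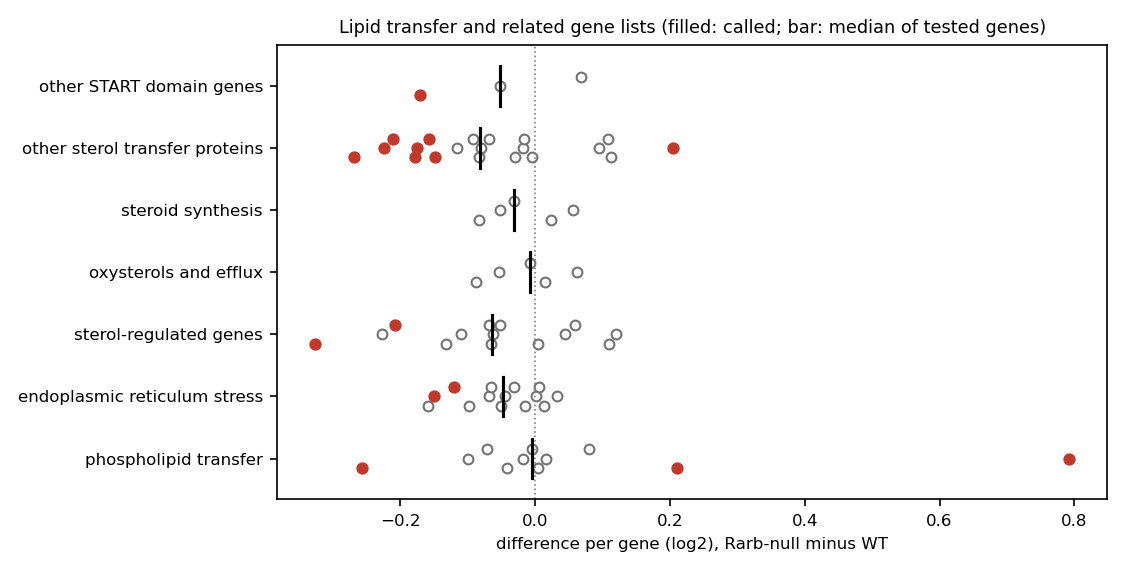
Difference per tested gene (Rarb-null minus WT, log2, horizontal axis) in 7 lists of lipid transfer and related genes (rows), with called genes filled and the median of each list as a bar. Pitpnm3 at 0.79 stands alone to the right, and 7 called sterol carriers lie between -0.27 and -0.15.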

How the data were processed

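RNA was read on Affymetrix Mouse Gene 1.0 ST arrays, 1 a mouse, in 5 Rarb-null and 6 WT mice, grouped by sample title. Tissue came from bilateral punches of frozen sections. The authors deposited log2 values after RMA, which, per the labels, is a log scale; base 2 was inferred from their range. RMA normalises quantiles and compresses folds of dim probe sets. Software version, batches and background signal are not given in the sources used here.

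Of 35556 probe sets, 21789 had 1 symbol in the platform annotation, 1621 had several and 12146 were not listed; symbols were updated through Entrez identifiers for 21698. A gene was read by its brightest probe set. Genes above the 40th percentile of mean level (log2 6.99) were tested across all genes with limma 3.58.1 (R 4.3.3; lmFit, eBayes, Benjamini-Hochberg). Untested members have differences from the fit without that filter. Exact permutation tests used all 462 allocations of genotype to arrays. The procedure was tested on simulated data. Figures used matplotlib 3.10.9.

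Members, lists, thresholds and alternatives were chosen with earlier results of these data known. Named were all members and START domain genes, up to 3 called genes of each list by smallest p, the neighbours of Stard5 and the 5 genes most like it; Osbpl1a, Osbpl8, Scp2, Tspo and Cxcl13 were named after their values were seen. A list of genes related to Stard8 and Stard13 is not reported here. The number of arrays limits the precision.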

Additional observations from a re-analysis of the deposited data

Results flagged for a closer look

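Of 72 groups of 5 or 6 arrays checked for members and named genes, 5 held an array set apart from the rest, where chance gives about 1 in 20 groups. Stard10 read 11.16 in null replicate 4 and 11.07 to 11.09 in the other null arrays. Pctp read 6.95 in null replicate 2 and 6.79 to 6.81 in the others. In WT replicate 5, Insig1 was at 10.33, while the remaining WT arrays lay at 9.96 to 10.10. In WT replicate 3, Atf6 was at 9.68, while the remaining ones lay at 9.78 to 9.82. Cfap161, a neighbour of Stard5, was at 5.70 in WT replicate 6, while the remaining ones lay at 5.88 to 5.91.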

How the results depend on the processing

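Stard5 kept its direction and moved by less than the spread between replicates under all 11 alternatives and without any array. The count of members past the threshold was 3 with Stard5 included, although Stard5 chose the family and its place in the count is no test. Of the 6 other members tested, 2 were called, beside 19.6% of all genes tested. The count with Stard5 was 1 with the cortical marker level in the fit and at an adjusted p of 0.01. It was also 1 with the 3 arrays of extreme cortical marker level dropped (chosen after seeing the data). That 1 was Stard5 itself, and no other member passed under these settings. The count with Stard5 ran from 3 to 5 when any array was left out, with 5 without WT replicate 2. Over all genes the count of 2341 became 1183 with the cortical and 1179 with the oligodendrocyte marker level in the fit, 1342 with the 3 arrays dropped, 970 at an adjusted p of 0.01, and 1548 to 2582 without an array each, lowest without null replicate 3. With arrays centred, 64.1% of calls were higher in null arrays, in place of 38.7%. The split was 1278 higher and 1229 lower without the filter on dim genes, and 510 higher and 1209 lower with the filter at the 60th percentile. Stard3, never called, changed sign to 0.0313 with arrays centred, 0.0229 normalised again, 0.0134 with the cortical level and 0.0308 with the 3 arrays dropped, and ran from -0.0335 to 0.0167 without an array each. The labels do not say that a replicate number marks a shared litter or day; deviations of same-numbered arrays were all positively correlated (0.056 to 0.425, 4 of 5 at 0.188 or more), and 2 of 5 null arrays matched their own number best, so pairing was neither assumed nor dismissed. A replicate block, which needs WT replicate 6 left out, gave 2870 genes, against 1947 on the same 10 arrays without the block. The block changed no call of a member. Efl1 passed with the block (-0.12, limma adjusted p = 0.0325) and not on the same 10 arrays without it (adjusted p = 0.0648). The call of Eif2ak3 was lost on these 10 arrays both with the block (-0.11, limma adjusted p = 0.0589) and without it (-0.11, adjusted p = 0.0763). The causes of these shifts were not tested. Signal over background was not measured, so small differences of dim genes cannot be weighed.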
